A study of Mus musculus with 16 samples.

Results

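The imprinted growth-control genes described here are 10 genes chosen by name: H19, Igf2, Meg3, Rian, Cdkn1c, Grb10, Peg3, Plagl1, Ndn and Mest. Of these 10, 9 were analysed, among 11710 genes counted by RNA sequencing in mouse rotator cuff muscle, and Igf2 was not analysed here. The 16 samples fall into 4 groups of 4, which cross strain with surgery: unoperated C57BL/6J (BL6), BL6 with the tendon of the muscle removed and the muscle denervated, unoperated MRL/MpJ (MRL), and MRL with the same operation. MRL is an inbred strain known for its closure of ear wounds. The controls had no operation of any kind, so an effect called surgery below holds tendon removal, denervation and the operation itself. Both strains are inbred and no engineered allele or drug is named in the labels. The labels name the supraspinatus and the series description the infraspinatus. They do not say that replicates are separate animals, so each p-value measures the spread between these samples, which may be technical.

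Imprinted genes are transcribed mainly from the maternal or the paternal copy, according to DNA methylation set in the germ line. Many act on growth before birth and are then turned down in most tissues, and skeletal muscle is known for keeping some of them on. H19, Meg3, Rian, Cdkn1c and Grb10 are known for expression from the maternal copy in most tissues, and Peg3, Plagl1, Ndn and Mest for expression from the paternal copy. Counts per gene add both copies together, so nothing below bears on which copy was read.

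Several of these genes carry microRNAs in the same primary transcript, which is why the miRNA sequences are shown with the counts of their hosts. The miRNAs themselves were not measured in these libraries. In RefSeq on GRCm38.p6, 13 mature arms lay within 4 of the genes, and their 13 seeds (bases 2 to 8, in capitals) were all different. The arms of miR-675 (chr7:142577112-142577133 for 5p and chr7:142577078-142577099 for 3p, minus strand) lay in an exon of H19. Those of miR-770 (chr12:109563710-109563731 and chr12:109563744-109563765, plus strand) lay in an exon of Meg3. An intron of Rian held miR-370 (chr12:109618270-109618289 and chr12:109618305-109618326, plus strand), and an intron of Mest held miR-335 (chr6:30741314-30741336 and chr6:30741354-30741375, plus strand). Both arms of each are given 5′ to 3′.
mmu-miR-675-5p: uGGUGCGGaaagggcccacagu
mmu-miR-675-3p: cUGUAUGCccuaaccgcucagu
mmu-miR-770-5p: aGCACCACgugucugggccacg
mmu-miR-770-3p: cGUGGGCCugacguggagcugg
mmu-miR-370-5p: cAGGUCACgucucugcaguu
mmu-miR-370-3p: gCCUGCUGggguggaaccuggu
mmu-miR-335-5p: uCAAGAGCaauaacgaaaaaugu
mmu-miR-335-3p: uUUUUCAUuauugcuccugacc

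The 250 bases before the start site are shown for 3 paternally expressed members on which the strain and surgery results below turn: Peg3, Ndn and Mest (RefSeq, GRCm38.p6, 5′ to 3′ on the gene's strand). The windows are Peg3 at chr7:6730420-6730669 (minus strand), Ndn at chr7:62348027-62348276 (plus strand) and Mest at chr6:30737800-30738049 (plus strand, 1 of 3 listed starts). In GENCODE, used for the gene coordinates below, Ndn is 1 exon at chr7:62346569-62350262 that holds its whole window. The Ndn start thus differs between the 2 annotations. The Mest window also lies inside the GENCODE span of its gene. Capitals mark GGGGCCCC, a core motif described for the Plagl1 protein, which reads the same on both strands.
Peg3: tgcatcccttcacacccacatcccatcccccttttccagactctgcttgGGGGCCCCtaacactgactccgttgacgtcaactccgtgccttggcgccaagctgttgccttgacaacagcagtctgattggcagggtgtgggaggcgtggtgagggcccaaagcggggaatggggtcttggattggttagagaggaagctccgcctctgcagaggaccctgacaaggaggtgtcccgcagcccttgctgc
Ndn: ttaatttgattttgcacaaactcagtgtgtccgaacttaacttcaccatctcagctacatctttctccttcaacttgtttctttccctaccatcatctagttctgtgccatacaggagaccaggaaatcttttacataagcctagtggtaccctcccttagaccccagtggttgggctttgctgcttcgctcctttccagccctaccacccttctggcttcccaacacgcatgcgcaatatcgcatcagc
Mest: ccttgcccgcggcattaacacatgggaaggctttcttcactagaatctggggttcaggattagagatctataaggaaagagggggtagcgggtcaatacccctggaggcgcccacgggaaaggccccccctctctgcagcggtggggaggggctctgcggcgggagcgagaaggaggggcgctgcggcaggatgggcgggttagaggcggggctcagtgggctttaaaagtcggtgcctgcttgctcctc

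GGGGCCCC occurred once in the Peg3 window and in neither of the other windows printed, and 0.884% of 32817 windows of this length over all listed genes held it. GCCATNTT, a core motif of Yy1 searched on both strands, was in none of these 3 windows and in 3.90% of all windows. CpG dinucleotides numbered 8 in the Peg3 window, 5 in the Ndn window and 14 in the Mest window, against a median of 6 over all windows. GC content was 60.4%, 47.2% and 62.4% in the same order, against a median of 52.4%. These matches describe letters in a window and show no binding.

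Total counts ran from 24323862 to 43552964 per sample. In BL6 the operated totals (26469749 to 31094642) all lay under the unoperated totals (33679319 to 43552964). Muscle fibre markers (Acta1, Ckm, Mb, Tnnt3 and Ttn) had nonzero counts in every library, and their summed level ran from 39650 to 99385 CPM, the usual per-library scaling of counts (here also scaled for library composition, so that libraries of unequal depth can be compared). In bulk tissue, fewer cells of a type and less RNA per cell cannot be told apart. Along the first principal component of log2 CPM, replicate 1 of unoperated MRL lay at -7.49, against -44.9 to -38.7 in the other unoperated MRL libraries. Replicate 4 of operated BL6 lay at 86.1, the highest of the 16 libraries.

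H19 stood far above the other members per length of exon. In unoperated BL6 it was at 178 ± 25.8 CPM per kb (SD, n = 4, as for every mean ± SD below), followed by Peg3 at 12.5 ± 1.10 and Cdkn1c at 8.77 ± 0.504 CPM per kb. Grb10 was at 5.21 ± 0.336, Meg3 at 2.70 ± 0.940, Ndn at 1.71 ± 0.327 and Rian at 1.61 ± 0.731 CPM per kb. Mest, at 0.668 ± 0.231, and Plagl1, at 0.211 ± 0.0662, were the lowest. From Meg3 down to Mest, each gene's mean ± SD overlapped that of the next, so their order there was within the spread. In unoperated MRL the order changed at the top: Cdkn1c, at 9.22 ± 1.78 CPM per kb, came next after H19, and Peg3, at 4.596 ± 1.40, came after Cdkn1c. Grb10 and Ndn, at 4.01 ± 0.306 and 3.79 ± 1.06 CPM per kb, lay within the spread of Peg3. Exon length is the union of all annotated exons, so a gene read mainly as a short transcript is understated.

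Surgery raised Cdkn1c, Ndn and Mest in BL6, and Cdkn1c, Grb10, Peg3 and Mest in MRL, and no member was called lower in either strain. In BL6 this is 3 of 9 members (33.3%) called higher in edgeR's quasi-likelihood test at an adjusted p under 0.05. Of all 11709 genes tested there, 67.9% were called, 35.1% higher and 32.8% lower. The members' share lay near the share of all genes called higher and under the share called in either direction. In MRL 4 of 9 members (44.4%) were called higher, where 45% of all genes were called, 22.3% higher and 22.7% lower. There the members' share lay near the share called in either direction and above the share called higher. These shares of all genes also apply to the counts of list genes called with surgery below. The median log2 fold change of the 9 members was 0.54 in BL6, against 0.04 over all genes, and 0.56 in MRL, against 0.01. The groups did not overlap, with every operated sample above every unoperated one, for 3 members in BL6 (27.5% of all genes) and 3 in MRL (17% of all genes). Over the alternatives to the scaling, filter, test and libraries, 3 to 4 members were called in BL6 and 3 to 6 in MRL. The 6 in MRL came both from the fit to the MRL groups alone and without the 2 libraries that stand apart, with Meg3 and Ndn called higher as well. The first of these fits called 2667 of all genes higher and 2555 lower, and the second 3411 and 3024. With all 16 libraries these numbers were 2609 and 2663.

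**Figure D1:**
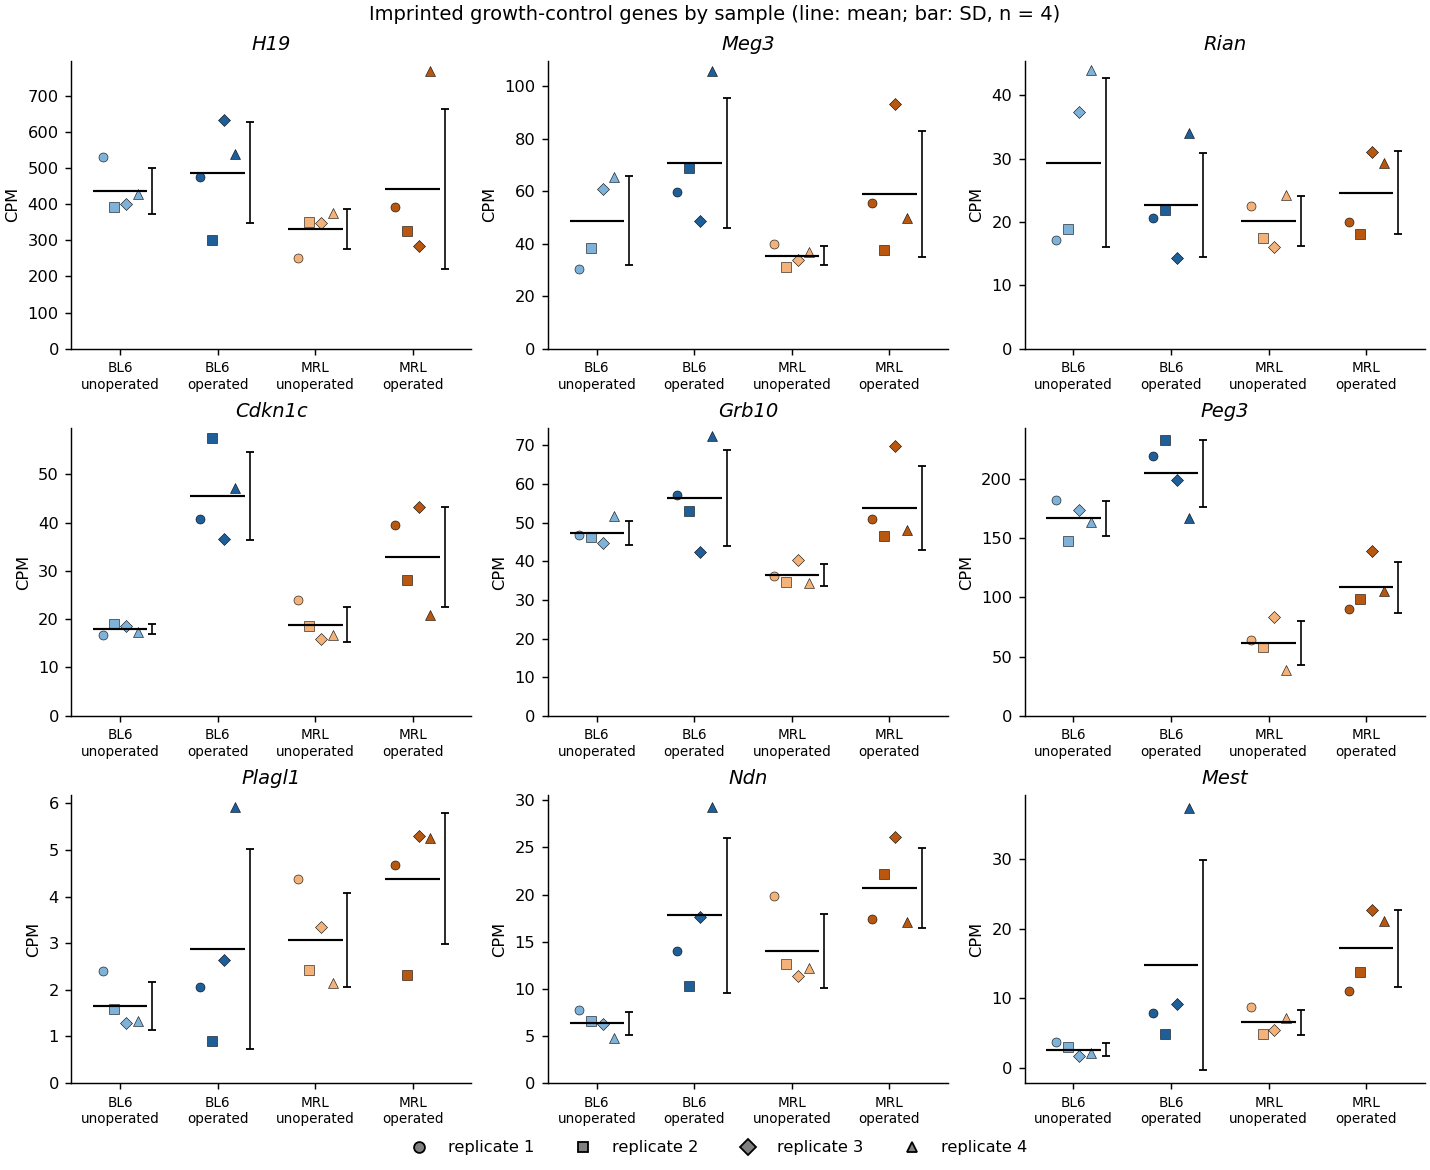
CPM of the 9 members in each of the 16 libraries, by group, on linear axes with a scale of its own for each gene; points are libraries and bars are the mean ± SD of 4. Peg3 is the member whose MRL libraries all lie under the BL6 libraries with and without surgery, and the Mest panel shows replicate 4 of operated BL6 at 37.3 CPM above all others.

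**Figure D2:**
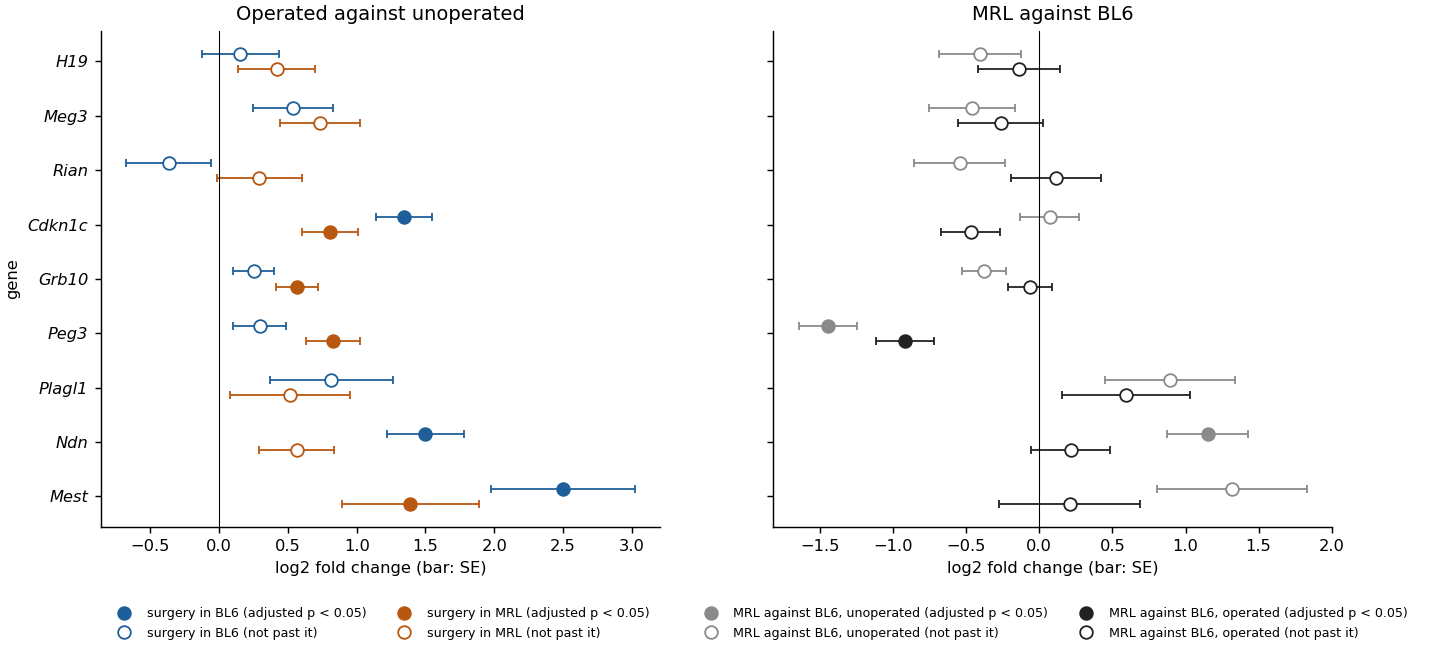
Log2 fold change of each member with its SE in the surgery and strain comparisons, from the edgeR fit to all 16 libraries; filled points passed an adjusted p of 0.05 over 11709 genes. No called member lies under 0 in the surgery comparisons, and Peg3 is the member called lower in MRL in both strain comparisons.

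Of the noncoding RNAs, H19 (chr7:142575529-142578143, minus strand) is a long RNA known for high levels in fetal tissue and in muscle. Its levels in unoperated BL6 were 530, 393, 399 and 429 CPM in replicates 1 to 4, and in operated BL6 475, 301, 633 and 538 CPM. In unoperated MRL they were 251, 350, 348 and 376 CPM, and in operated MRL 392, 326, 283 and 769 CPM. The operated and unoperated groups overlapped in both strains, and the highest library was replicate 4 of operated MRL. The log2 fold change with surgery was 0.15 (SE 0.28, adjusted p 0.638) in BL6 and 0.42 (SE 0.28, adjusted p 0.228) in MRL, so H19 was not called in edgeR's quasi-likelihood test. Without operated MRL replicate 4 the MRL value was 0.00952. Among unoperated samples every MRL library lay under every BL6 library, with a log2 difference of -0.40 and an adjusted p of 0.416.

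Meg3 (chr12:109541001-109571726, plus strand) and Rian (chr12:109603940-109661716, plus strand) are long noncoding RNAs of the same imprinted cluster, with 32213 bases between them. Meg3 is known to bind chromatin regulators, and Rian is a host of small nucleolar RNAs. Meg3 in unoperated BL6 was at 30.4, 38.5, 60.9 and 65.5 CPM and in operated BL6 at 59.8, 68.8, 48.8 and 106 CPM. In unoperated MRL it was at 39.98, 31.2, 33.9 and 36.9 CPM and in operated MRL at 55.6, 37.6, 93.2 and 49.7 CPM. The groups overlapped in both strains, since unoperated BL6 replicates 3 and 4 lay within the operated range and operated MRL replicate 2 lay under the highest unoperated library. Log2 fold changes were 0.54 (SE 0.29, adjusted p 0.112) in BL6 and 0.73 (SE 0.29, adjusted p 0.0521) in MRL in edgeR's quasi-likelihood test. The MRL value passed the threshold under 5 of 16 alternatives, among them DESeq2, at an adjusted p of 0.0348. It was 0.42 without operated MRL replicate 3, and the BL6 value was 0.27 without operated BL6 replicate 4, neither of them called.

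Rian in unoperated BL6 was at 17.2, 18.9, 37.3 and 43.9 CPM and in operated BL6 at 20.6, 21.9, 14.3 and 34.1 CPM. In unoperated MRL it was at 22.5, 17.6, 16.1 and 24.4 CPM and in operated MRL at 19.98, 18.1, 31.1 and 29.3 CPM. Its highest libraries were unoperated BL6 replicates 4 and 3, the same that were high for Meg3 in that group, and no pair of groups separated. The log2 fold change was -0.37 (SE 0.31, adjusted p 0.300) in BL6 and 0.29 (SE 0.31, adjusted p 0.447) in MRL in edgeR's quasi-likelihood test. Without operated BL6 replicate 4 the BL6 value was -0.64 (adjusted p 0.0866).

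Both RNAs were high in the same unoperated BL6 libraries. They were also compared within each library, a comparison planned because they are neighbours in the same imprinted cluster. The log2 difference Meg3 minus Rian was 0.82, 1.03, 0.70 and 0.57 in unoperated BL6 and 1.54, 1.65, 1.77 and 1.63 in operated BL6. All operated BL6 libraries lay above all unoperated ones, with means of 1.65 ± 0.09 and 0.78 ± 0.19 on the log2 scale. The difference of 0.87 had an exact two-sided permutation p of 0.0286, the smallest that 4 against 4 samples can give, and 0.114 when adjusted over 4 such tests. In MRL the values were 0.83, 0.83, 1.07 and 0.60 without surgery and 1.47, 1.05, 1.58 and 0.76 with it, and the groups overlapped. That difference was 0.39, with an exact permutation p of 0.2 (0.267 adjusted). Among operated samples MRL was lower than BL6 by a log2 difference of -0.43 (exact permutation p = 0.0571, 0.114 adjusted), and among unoperated samples the difference was 0.05 (exact permutation p = 0.657). None of the 4 passed after adjustment. The Meg3 exons share 1228 bases (6.79%) with a lincRNA on the other strand, Gm26906, and the use of strand in counting is not given in the sources used here.

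**Figure D3:**
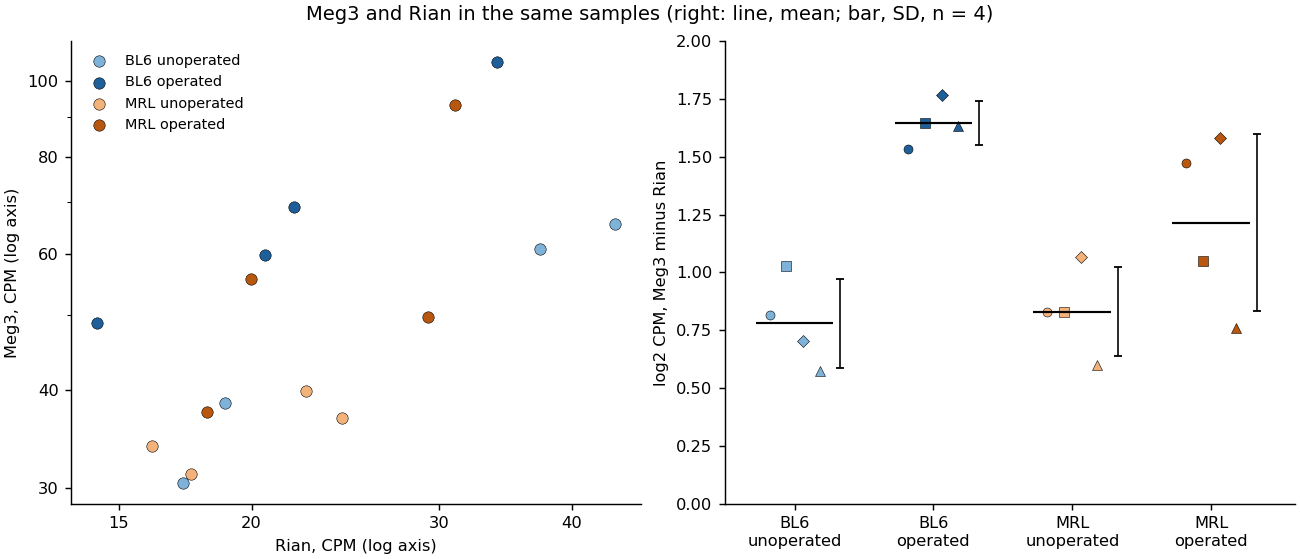
Meg3 against Rian in CPM on log axes (left), and their log2 difference within each library by group (right; line, mean; bar, SD of 4; circle, square, diamond and triangle are replicates 1, 2, 3 and 4). The operated BL6 libraries lie at 1.54 to 1.77 and the unoperated BL6 libraries at 0.57 to 1.03, while the MRL groups overlap.

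Of the other transcripts of that cluster, Mirg, a noncoding miRNA host downstream of Rian, rose in BL6 from 1.83 ± 0.890 to 3.53 ± 0.689 CPM. Its log2 fold change was 0.95 (adjusted p 0.0173) in BL6, kept in 12 of 16 alternatives, and 0.66 (adjusted p 0.105) in MRL in edgeR's quasi-likelihood test. Dlk1, a paternally expressed membrane protein of the same cluster known to restrain adipocyte formation, rose in both strains. It went from 1.19 ± 0.257 to 3.53 ± 2.85 CPM in BL6 (log2 fold change 1.57, adjusted p 0.00341) and from 1.55 ± 0.398 to 3.58 ± 0.802 CPM in MRL (1.21, adjusted p 0.0248 in edgeR's quasi-likelihood test). The MRL call was kept in 11 of 16 alternatives, and the BL6 log2 fold change was 0.82 at the lowest, still called.

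Among the growth inhibitors, Cdkn1c (chr7:143458339-143461050, minus strand) codes for p57, an inhibitor of cyclin-dependent kinases that takes part in the exit of muscle precursors from the cell cycle. It was at 16.8, 18.9, 18.6 and 17.3 CPM in unoperated BL6 and at 40.7, 57.4, 36.7 and 47.1 CPM in operated BL6. In unoperated MRL it was at 24.0, 18.6, 15.96 and 16.7 CPM and in operated MRL at 39.6, 28.02, 43.2 and 20.8 CPM. The BL6 groups were far apart and the unoperated BL6 libraries nearly equal, whereas in MRL operated replicate 4 lay under unoperated replicate 1. Cdkn1c rose 2.54-fold in BL6 (log2 fold change 1.35, SE 0.20, adjusted p 6.98e-05) and 1.75-fold in MRL (0.80, SE 0.20, adjusted p 0.00664) in edgeR's quasi-likelihood test. Both calls held under every alternative run, with log2 values of 1.21 to 1.48 in BL6 and 0.65 to 0.97 in MRL. Its exons share 625 bases (30.7%) with an antisense gene, Gm44732, so without strand some of its counts could belong to that gene.

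The cell cycle partners of Cdkn1c (11 of 15 listed genes analysed) included 7 higher, 3 lower and 1 not called with surgery in BL6, and 6 higher, 1 lower and 4 not called in MRL. Their median log2 fold change was 0.66 in BL6, against 0.04 over all genes, and 0.57 in MRL, against 0.01. Cdkn1a (p21), a related inhibitor, rose more than Cdkn1c in both strains, from 15.7 ± 2.13 to 95.6 ± 20.6 CPM in BL6 and from 17.1 ± 1.40 to 49.5 ± 22.3 CPM in MRL. Its log2 fold changes were 2.61 and 1.54, while Cdkn1b (p27), the other inhibitor of that family, fell by 0.38 in BL6 (adjusted p 0.00264) and had -0.24 in MRL (adjusted p 0.0551 in edgeR's quasi-likelihood test). Of the kinase partners, Ccnd1 (cyclin D1) had log2 fold changes of 1.79 and 1.30, Ccnd3 of 0.97 and 0.67, and Cdk2 of 0.96 and 0.78, all called in both strains. Ccne2 (cyclin E2) fell, with -2.84 in BL6 and -1.49 in MRL. The list mixes inhibitors with the cyclins and kinases they bind, and it also holds Rb1 and Pcna. Rb1 had -0.45 in BL6 (called) and 0.13 in MRL (not called), and Pcna 0.11 and -0.04, not called. Among operated samples Cdkn1a was lower in MRL (log2 difference -0.95, adjusted p 0.0188, called in 11 of 16 alternatives), and Cdkn1c had -0.47 (adjusted p 0.145). Of the 11 genes, 2 were called higher there (Ccne2 and Rb1) and 2 lower (Cdkn1a and Pcna). Of all genes, 7.6% were called higher there and 5.27% lower.

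Grb10 (chr11:11930508-12038683, minus strand) codes for an adaptor that binds the insulin and IGF1 receptors and restrains their signal. Its levels were 46.9, 46.2, 44.7 and 51.7 CPM in unoperated BL6 and 57.1, 53.1, 42.5 and 72.5 CPM in operated BL6. They were 36.2, 34.8, 40.4 and 34.3 CPM in unoperated MRL and 51.0, 46.5, 69.9 and 48.2 CPM in operated MRL. The MRL groups did not overlap, while in BL6 operated replicate 3 was the lowest of the 8 libraries. Grb10 rose 1.48-fold in MRL (log2 fold change 0.56, SE 0.15, adjusted p 0.00866) and was not called in BL6 (0.25, SE 0.15, adjusted p 0.151) in edgeR's quasi-likelihood test. The BL6 value was 0.36 and called (adjusted p 0.0379) without operated replicate 3, and 0.0974 without operated replicate 4. Every unoperated MRL library lay under every unoperated BL6 library, at a log2 difference of -0.38 (adjusted p 0.132). In the fit to the unoperated groups alone this difference was called, at an adjusted p of 0.00796.

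Of the IGF system partners of Igf2, Igf2r and Grb10 (13 of 15 listed genes analysed), 6 were higher, 5 lower and 2 not called with surgery in BL6, and 2 higher, 3 lower and 8 not called in MRL. Their median log2 fold change was 0.16 in BL6 and -0.07 in MRL. Of the 6 genes that rose in BL6, 5 were binding proteins. Igfbp2 had the largest log2 fold change there, 4.41 (adjusted p 0.00395), at low and uneven levels (0.138 ± 0.138 to 3.01 ± 4.72 CPM), and 1.65 in MRL (adjusted p 0.218 in edgeR's quasi-likelihood test). Igfbp7 had log2 fold changes of 2.33 and 1.75 and Igfbp3 of 1.46 and 0.79, called in both strains, and Igfbp4 had 2.11 in BL6 (called) and 0.97 in MRL (adjusted p 0.0639). Igfbp6 had 1.38 in BL6 (called) and 0.66 in MRL (adjusted p 0.0548 in edgeR's quasi-likelihood test). Igfbp5, the binding protein known for high levels in muscle, fell by 1.19 (BL6) and 0.63 (MRL). Insr, the insulin receptor, fell by 1.38 and 0.65. Igf1r, the IGF1 receptor, fell by 0.37 in BL6 (adjusted p 0.0124) and had -0.17 in MRL (adjusted p 0.248 in edgeR's quasi-likelihood test). It was the 1 gene of the 13 called between the unoperated strains, lower in MRL (log2 difference -0.47, adjusted p 0.0177 in the same test). Irs1, an adaptor of both receptors, had the lowest value of the list in BL6, -1.53 (called), and -0.19 in MRL (adjusted p 0.575). Igf1 itself went from 13.8 ± 12.1 to 42.6 ± 30.1 CPM in BL6 (called, log2 fold change 1.63) and from 24.6 ± 8.69 to 50.2 ± 8.81 CPM in MRL (1.03, adjusted p 0.0987). Grb14, the close relative of Grb10, had 0.03 in BL6 and -0.07 in MRL and was not called. Without the 2 libraries that stand apart, 6 of the 13 were higher and 3 lower in MRL, and 5 higher and 5 lower in BL6.

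Peg3 (chr7:6703892-6730431, minus strand) codes for a zinc-finger protein known as a mark of tissue stem and progenitor cells, muscle satellite cells among them. It had the clearest strain difference of the 9 members. The levels were 182, 148, 174 and 164 CPM in unoperated BL6 and 64.3, 58.4, 83.8 and 38.5 CPM in unoperated MRL. With surgery they were 219, 233, 199 and 167 CPM in BL6 and 90.2, 98.6, 139 and 106 CPM in MRL. Every MRL library lay under every BL6 library, operated or not, and operated MRL lay above unoperated MRL. Peg3 was 2.72-fold lower in MRL without surgery (log2 difference -1.45, SE 0.20, adjusted p 0.000113) and 1.89-fold lower with it (-0.92, SE 0.20, adjusted p 0.00539) in edgeR's quasi-likelihood test. Both differences were called under every alternative run, at -1.64 to -1.28 and -1.06 to -0.83. With surgery Peg3 rose 1.77-fold in MRL (log2 fold change 0.82, SE 0.20, adjusted p 0.00509) and had 0.29 (SE 0.19, adjusted p 0.190) in BL6.

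Over all 9 members, 1 was called higher and 1 lower in unoperated MRL against unoperated BL6, where 10.4% of all genes were called, 5.02% higher and 5.36% lower. Every MRL library lay above every BL6 library for 2 members (12.2% of all genes) and below for 3 (12.9% of all genes). Among operated samples Peg3 was the 1 member called, where 12.9% of all genes were called, 7.6% higher and 5.27% lower, and the 1 member with every MRL library below every BL6 library (6.16% of all genes). Scaling by total counts alone moved the split of all calls from 588 higher and 628 lower to 742 and 313 among unoperated samples, and from 890 and 617 to 994 and 383 among operated ones. The median log2 value over all genes moved from 0.01 to 0.15 in the first of these and from 0.04 to 0.18 for surgery in BL6. Build mm10 is the only genome build named in the submitters' processing notes, which cover both strains. The effect of sequence differences between the strains on the mapping of reads was not tested for any gene compared between them.

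Zim1 (chr7:6671269-6696450, minus strand), a maternally expressed zinc-finger gene 7441 bases from Peg3, was also lower in unoperated MRL. It was at 14.1, 9.38, 10.4 and 10.3 CPM in unoperated BL6 and at 5.56, 6.29, 6.68 and 4.98 CPM in unoperated MRL. The groups did not overlap, and the log2 difference was -0.91 (adjusted p 0.0324 in edgeR's quasi-likelihood test). That call was kept in 8 of 16 alternatives, with adjusted p from 0.00238 to 0.165. After surgery the groups overlapped, with 6.78, 6.04, 7.87 and 12.4 CPM in BL6 and 5.20, 4.82, 6.89 and 10.6 CPM in MRL (log2 difference -0.27, adjusted p 0.548). Of the 24 other imprinted genes analysed, 0 were called higher and 2 lower in unoperated MRL, namely Zim1 and Peg13. Of all genes, 5.02% were called higher and 5.36% lower there. Peg13 had a log2 difference of -0.40 (adjusted p 0.00459 in edgeR's quasi-likelihood test). Satellite cell markers (3 of 4 listed genes analysed), whose cells are known to express Peg3, summed to 36.6 to 40.8 CPM in unoperated BL6 and 32.3 to 40.1 CPM in unoperated MRL, and none of them was called between the unoperated strains (1 was called lower in MRL without the 2 libraries that stand apart). Their part in the difference was not tested.

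**Figure D4:**
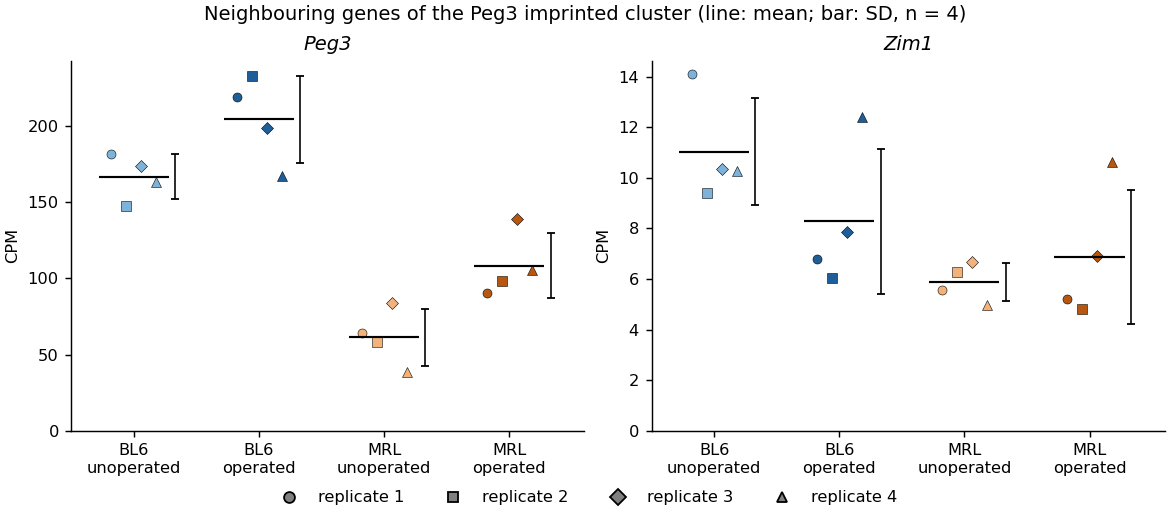
CPM of Peg3 and its neighbour Zim1 in each library, by group, with the mean ± SD of 4 libraries. Peg3 in MRL stays at or under 139 CPM and in BL6 at or above 148 CPM, while the Zim1 groups separate by strain among unoperated libraries and overlap among operated ones.

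Ndn (chr7:62346569-62350262, plus strand) codes for necdin, a MAGE-family protein known to restrain growth of neurons and to be made by myoblasts. Its levels were 7.69, 6.58, 6.21 and 4.76 CPM in unoperated BL6 and 14.01, 10.3, 17.6 and 29.3 CPM in operated BL6. They were 19.8, 12.7, 11.4 and 12.2 CPM in unoperated MRL and 17.4, 22.2, 26.1 and 17.1 CPM in operated MRL. Unoperated BL6 lay under every other library, and in MRL the groups overlapped through unoperated replicate 1. Ndn rose 2.83-fold in BL6 (log2 fold change 1.499, SE 0.28, adjusted p 0.000310) and had 0.56 (SE 0.27, adjusted p 0.0994) in MRL in edgeR's quasi-likelihood test. Without unoperated MRL replicate 1 the MRL value was 0.78 and called, at an adjusted p of 0.0333. In unoperated muscle Ndn was 2.22-fold higher in MRL (log2 difference 1.15, SE 0.28, adjusted p 0.0133), and this call was lost without unoperated MRL replicate 1 (0.93, adjusted p 0.0576) and without unoperated BL6 replicate 4 (1.04, adjusted p 0.0524).

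Mest (chr6:30723547-30748465, plus strand) codes for a protein of the alpha/beta hydrolase fold known for its rise when fat tissue expands. It had the largest surgery fold change of the 9 members in both strains. The levels were 3.69, 3.06, 1.69 and 2.08 CPM in unoperated BL6 and 7.95, 4.88, 9.13 and 37.3 CPM in operated BL6. They were 8.77, 4.80, 5.48 and 7.20 CPM in unoperated MRL and 11.1, 13.8, 22.7 and 21.2 CPM in operated MRL. Operated lay above unoperated in both strains without overlap, and operated BL6 replicate 4 stood far above its group. Mest rose 5.66-fold in BL6 (log2 fold change 2.50, SE 0.52, adjusted p 0.000716) and 2.62-fold in MRL (1.39, SE 0.50, adjusted p 0.0332) in edgeR's quasi-likelihood test. Without operated BL6 replicate 4 the BL6 value was 1.47, still called. The MRL call was lost under total-count scaling (1.45, adjusted p 0.0670) and on leaving out any of 5 MRL libraries (unoperated replicates 2, 3 and 4, operated replicates 3 and 4), with adjusted p up to 0.0901.

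Every unoperated MRL library lay above every unoperated BL6 library for Mest (log2 difference 1.32, SE 0.51, adjusted p 0.123), which DESeq2 called at an adjusted p of 0.0468. Among operated samples the Mest difference was 0.21 (adjusted p 0.819), and 1.24 and called (adjusted p 0.0184) without operated BL6 replicate 4. Mest shares 912 exon bases (23.1%) with Copg2, which lies on the other strand and was counted too. Copg2, a coat protein of Golgi vesicles, moved the other way: it fell by 0.66 in BL6 (21.6 ± 1.32 to 13.7 ± 0.850 CPM, adjusted p 0.000166) and had -0.24 in MRL (adjusted p 0.0901 in edgeR's quasi-likelihood test).

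Plagl1 (chr10:13060504-13131694, plus strand), a zinc-finger transcription factor also known as Zac1 and described as a regulator of other imprinted genes, was the least counted member, with 23 to 208 counts per library. It was at 2.40, 1.58, 1.29 and 1.33 CPM in unoperated BL6 and 2.06, 0.891, 2.65 and 5.91 CPM in operated BL6. In unoperated MRL it was at 4.37, 2.43, 3.35 and 2.14 CPM and in operated MRL at 4.67, 2.32, 5.29 and 5.26 CPM. The highest and the lowest of the 16 libraries were both in operated BL6, and no pair of groups separated by surgery. Log2 fold changes were 0.82 (SE 0.45, adjusted p 0.115) in BL6 and 0.52 (SE 0.43, adjusted p 0.336) in MRL in edgeR's quasi-likelihood test. The BL6 value was 0.18 without operated replicate 4, which held the highest level, and 1.11 and called (adjusted p 0.0196) without operated replicate 2, which held the lowest.

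Markers of connective tissue cells also varied between libraries. The summed level of 6 fibroblast markers (Pdgfra, Dcn, Lum, Col1a1, Col3a1 and Dpt, all 6 analysed, none at 0 in any library) was 1384, 817, 648 and 571 CPM in unoperated BL6 and 1381, 821, 1535 and 5402 CPM in operated BL6. It was 2003, 1206, 1209 and 1189 CPM in unoperated MRL and 1525, 1512, 2979 and 2991 CPM in operated MRL. The library that stood out for Ndn in unoperated MRL, replicate 1, and the one that stood out for Mest in operated BL6, replicate 4, were the highest of their groups in this sum too. In both BL6 groups the order of the libraries by this sum was also their order by Ndn level. In unoperated MRL the order differed below replicate 1. In operated MRL replicates 3 and 4 had nearly equal sums, 2979 and 2991 CPM. They held the highest and the lowest Ndn level of that group, 26.1 and 17.1 CPM. Of the 6 markers, 3 were called higher with surgery in BL6 and 0 in MRL, with 0 at an unadjusted p under 0.05 in MRL. Without the 2 libraries that stand apart these counts were 1 in BL6 and 2 in MRL. Macrophage markers (5 of 5 analysed, none at 0) ran from 31.3 to 127 CPM in unoperated BL6, 71.4 to 457 in operated BL6, 62.4 to 268 in unoperated MRL and 106 to 198 in operated MRL. With surgery 4 of the 5 were called higher in BL6 and 0 in MRL, with 0 at an unadjusted p under 0.05 in MRL, and without the 2 libraries 4 in BL6 and 3 in MRL. Adipocyte markers (4 of 5 analysed, none at 0) ran from 208 to 279, 1209 to 1656, 262 to 369 and 1086 to 1902 CPM in the same order of groups, and all 4 rose in both strains. With surgery, Schwann cell markers had 5 of 5 higher in BL6 and 4 of 5 in MRL, endothelial markers 4 of 5 and 5 of 5, and tendon markers 2 of 2 and 0 of 2, while 3 and 2 of the 5 muscle fibre markers were lower. Without the 2 libraries that stand apart, MRL had 3 of 5 Schwann cell and 1 of 2 tendon markers higher, and BL6 2 of 5 muscle fibre markers lower. The part of these cells in the changes of Ndn and Mest was not tested.

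No member passed the test of a strain difference in the surgery response. The interaction, the MRL response minus the BL6 response, was called for 0 of 9 members in edgeR's quasi-likelihood test, in DESeq2 and in limma-voom, where 0.248% of all genes were called by edgeR. At an unadjusted p under 0.05 it held 1 member, Ndn (11.1% of the 9, against 15.7% of all genes), with -0.94 (SE 0.39, adjusted p 0.269). Cdkn1c had -0.54 (adjusted p 0.356), Peg3 0.53 (adjusted p 0.352) and Mest -1.11 (SE 0.70, adjusted p 0.429) in the same fit. Without the 2 libraries that stand apart the Mest value was 0.10. A call in one strain and not in the other, as for Grb10, Peg3 and Ndn, is therefore no measured difference between the strains.

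With surgery 35.1% of all genes were called higher and 32.8% lower in BL6, and 22.3% and 22.7% in MRL. Other imprinted genes likewise moved in both directions. Of 38 listed, 24 were analysed: 7 were higher, 8 lower and 9 not called in BL6, and 5 higher, 5 lower and 14 not called in MRL. Their median log2 fold change was 0.13 in BL6 and 0.16 in MRL, against 0.04 and 0.01 over all genes. Rises called in both strains included Dlk1 and Cd81, a tetraspanin, with 1.02 in BL6 and 0.62 in MRL, and Commd1, a copper-handling protein, with 1.14 and 0.76. Nnat, a paternally expressed membrane protein known from developing neurons and fat, had 2.91 in BL6 (adjusted p 0.00858) and 2.06 in MRL (adjusted p 0.0585 in edgeR's quasi-likelihood test). Over 16 alternatives the BL6 value ran from 2.21 to 3.79, called in all 16, and the MRL value from 1.11 to 2.40, called in 3. Peg10, a paternally expressed gene derived from a retroelement, had 0.47 in BL6 (adjusted p 0.113) and 1.13 in MRL (adjusted p 0.00408). No interaction was called for any of the 24 genes, and 3 had an unadjusted p under 0.05.

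Genes that fell in both strains were led by Slc38a4, an amino acid transporter, from 103 ± 23.3 to 23.5 ± 16.6 CPM in BL6 (log2 fold change -2.13) and from 87.3 ± 17.0 to 32.3 ± 15.5 CPM in MRL (-1.43). Ube3a, a ubiquitin ligase known for imprinting in neurons, went from 89.6 ± 7.23 to 30.4 ± 5.13 CPM in BL6 (-1.56) and from 82.5 ± 18.6 to 48.8 ± 10.8 CPM in MRL (-0.76). Snrpn, a splicing protein, fell by 1.31 and 0.81, and Asb4 by 1.10 and 0.65. Igf2r, the receptor that carries IGF2 to lysosomes, fell in BL6 from 117 ± 13.2 to 66.9 ± 5.21 CPM (log2 fold change -0.81, adjusted p 0.00110) and had -0.24 in MRL (adjusted p 0.272 in edgeR's quasi-likelihood test). In BL6 the falls thus hold genes known for paternal expression (Slc38a4, Snrpn) and for maternal expression (Igf2r). Dcn belongs both to this list and to the fibroblast markers and was not called, with 0.32 and 0.24.

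**Figure D5:**
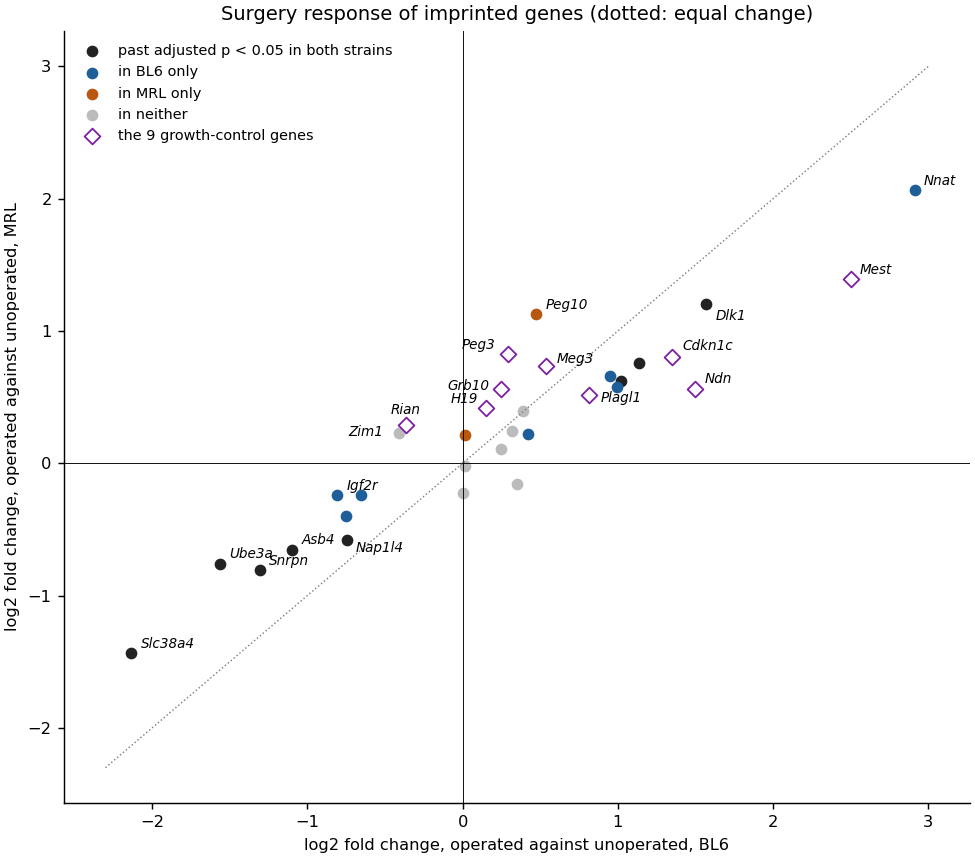
Log2 fold change with surgery in BL6 (x axis) and in MRL (y axis) for the 9 members (diamonds) and the other analysed imprinted genes (circles, coloured by the strains in which they passed an adjusted p of 0.05). The 2 comparisons use different libraries; the members lie above 0 in both strains except Rian, at -0.37 in BL6, while the other imprinted genes spread from -2.13 (Slc38a4) to 2.91 (Nnat) in BL6.

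Genes of regenerating or immature muscle (8 of 12 listed analysed) gave the setting of the muscle itself. In BL6 3 were higher, 3 lower and 2 not called with surgery, and in MRL 4 were higher, 2 lower and 2 not called. Myog (myogenin), which drives differentiation of myoblasts, had log2 fold changes of 2.05 and 1.85. Ncam1, an adhesion molecule, had 1.41 and 1.09, and Actc1 (cardiac actin, made in immature fibres) had 0.98 and 1.23. Myh3, embryonic myosin, had 0.72 in BL6 (adjusted p 0.224) and 1.80 in MRL (adjusted p 0.0146 in edgeR's quasi-likelihood test). Chrna1, a subunit of the muscle acetylcholine receptor, fell by 0.47 and 0.37, and Myod1 by 0.76 and 0.57. Pax7, a satellite cell factor, fell by 0.69 in BL6 and had 0.21 in MRL (adjusted p 0.530). Myh8 had -0.49 in BL6 (adjusted p 0.0573) and 0.47 in MRL (adjusted p 0.0841 in edgeR's quasi-likelihood test).

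The single gene whose pattern over the 16 samples lay nearest to each member was found by the root-mean-square difference between log2 CPM values centred on each gene's mean, with 9617 genes compared, each with a mean of 5 CPM or more. The nearest to Grb10 was Rabgap1l, at 0.105 log2 units, against a spread of Grb10 around its own mean of 0.303. For Cdkn1c it was Bola2 at 0.174, against 0.615, and for Ndn St3gal4 at 0.209, against 0.739. Mest was nearest to Itgbl1, at 0.301 against 1.19, and Peg3 to Slc25a17, at 0.315 against 0.730. H19 (Adprhl1, 0.264 against 0.417), Meg3 (Ctsl, 0.300 against 0.525), Rian (Zfp423, 0.296 against 0.455) and Plagl1 (Clmp, 0.324 against 0.770) had nearest genes at larger shares of their own spread, as did Peg3. This is a description over samples that share groups and depth.

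Each nearest gene was chosen for its likeness over the same samples, so similar fold changes follow from the choice. Itgbl1, an integrin-related secreted protein, had log2 fold changes of 2.33 with surgery in BL6 and 1.60 in MRL, beside 2.50 and 1.39 for Mest. Slc25a17, a peroxisomal carrier, had log2 differences of -1.28 and -1.32 between MRL and BL6 without and with surgery, beside -1.45 and -0.92 for Peg3.

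In the authors' deposited table of comparisons, the same 3 members passed a false discovery rate of 0.05 for surgery in BL6, and the calls on all 9 members were the same in both strain comparisons. For surgery in MRL the authors' deposited table called 7 members, the 4 named above and also Meg3 (log2 fold change 0.87, false discovery rate 0.0153), Plagl1 (0.85, 0.0442) and Ndn (0.82, 0.00218). The share of all genes called in the deposited table was not counted here. The fit given here called 45% of all genes for surgery in MRL. For surgery in MRL the deposited log2 values differed from those given here by up to 0.381. The largest difference in any of the 4 comparisons was 0.786, for Mest between the operated strains (0.99 in the authors' table, 0.21 here). For surgery in BL6 the largest was 0.785, also for Mest (1.71 in the authors' table, 2.50 here). For surgery in MRL the authors' Mest value was 1.77, against 1.39 here. The sign was the same for all 9 members in both surgery comparisons and for 8 of 9 in each strain comparison.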

How the data were processed

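RNA sequencing counts of 16 mouse rotator cuff muscle samples were used. Per the labels' protocols, RNA came from minced muscle by a column kit with DNase treatment. The authors deposited raw counts as whole numbers for each gene and sample, which is a reading of the values. FastQC, STAR, edgeR and build mm10 are named in the submitters' processing notes, with no roles; the counting program and its use of strand are not given in the sources used here. A second deposited table gives the authors' log2 fold changes, log2 CPM and p-values with false discovery rates for 4 comparisons, per the file headers.

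From the counts, R 4.3.3 with edgeR 4.0.16 was used: TMM scaling, filterByExpr (minimum count 10; 11709 genes kept, 1 removed), and a quasi-likelihood fit of 1 mean per group over all 16 samples. P-values were adjusted by Benjamini-Hochberg over all genes tested, and genes were called at an adjusted p under 0.05. CPM uses TMM-scaled library sizes, and log2 CPM a prior count of 2. Meg3 minus Rian was tested by exact permutation of sample labels. Alternatives were DESeq2 1.42.0, limma-voom (limma 3.58.1), other size factors, no filter, a replicate block, the compared groups alone, leaving out each library, and, chosen after seeing the data, leaving out 2 libraries. The fit was tested on simulated data. Precision is limited by 4 samples a group and by 24323862 to 43552964 counts per sample.

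Coordinates are from GENCODE M21 on GRCm38, where 11707 of 11709 gene IDs were found. The genes, the lists of other imprinted, IGF system, cell cycle, regenerating muscle and cell type marker genes, and the rule for naming genes (all members, any list gene, and for each member the nearest gene of at least 5 CPM) were chosen with earlier results of these data known.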

Additional observations from a re-analysis of the deposited data

Results flagged for a closer look

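Of 40 groups of 4 samples examined, 2 held a sample whose gap to its nearest neighbour, over the range of the group, passed Dixon's critical value for 4 samples. Chance gives this in about 1 group of 20. Ndn in unoperated MRL was at 19.8 CPM in replicate 1, against 11.4 to 12.7 CPM in the other 3. Mest in operated BL6 was at 37.3 CPM in replicate 4, against 4.88 to 9.13 CPM in the other 3.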

How the results depend on the processing

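Of the values for single genes under an alternative, 740 kept their direction and side of the threshold, 18 passed it, 8 lost it and 17 changed sign. No member called in a surgery or strain comparison changed sign under the alternatives run. In the strain comparison of unoperated samples 4 members were called when those groups were fitted alone and 1 to 2 on leaving out each replicate. Over all genes, that fit alone called 1210 higher and 1228 lower of 11700. With all 16 libraries 588 and 628 of 11709 were called. The fits that left out each replicate called 377 to 532 of all genes higher and 428 to 591 lower. Among operated samples 1 to 3 members were called on leaving out each replicate and 3 without both libraries that stand apart. The fits that left out each operated replicate called 554 to 1147 of all genes higher and 465 to 706 lower. Without both libraries that stand apart, 949 of all genes were called higher and 698 lower, against 890 and 617 with all 16 libraries. Without those 2 libraries the interaction was 0.57 for Plagl1 and 0.10 for Mest, the unoperated strain difference was -0.0752 for Cdkn1c, and the operated one was 0.000826 for Meg3 and 0.0847 for Grb10, each of the other sign and none of them called.

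On leaving out each replicate, the interaction ran from -0.15 to 0.43 for H19, -0.11 to 0.47 for Meg3 and -0.60 to 0.34 for Plagl1. The unoperated strain difference ran from -0.0752 to 0.14 for Cdkn1c. The operated strain difference ran from -0.56 to 0.0261 for H19, -0.57 to 0.000832 for Meg3, -0.0522 to 0.39 for Rian, -0.21 to 0.0847 for Grb10 and -0.0819 to 1.24 for Mest. The cause was not tested. Meg3 minus Rian ran from 0.80 to 0.95 for surgery in BL6, -0.0289 to 0.13 between unoperated strains and -0.55 to -0.28 between operated strains, the last with an exact permutation p of 0.0286 without operated MRL replicate 3.

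Samples share replicate numbers in their titles alone, and deviations of same-numbered samples from their group means correlated at -0.474 to 0.452 across genes, so the numbers were not taken as pairs. With the replicate number as a block the members called were 3 for surgery in BL6, 4 in MRL, 0 in the interaction, 2 between unoperated strains and 1 between operated strains. Of all genes, the fit with this block called 4047 higher and 3883 lower for surgery in BL6, and 2527 and 2670 in MRL. It called 1 higher and 1 lower in the interaction, 549 and 597 between unoperated strains, and 770 and 584 between operated strains. Signs exchanged within the replicate block gave Meg3 minus Rian in BL6 a value of 0.87 and an exact permutation p of 0.125, the smallest 4 pairs can give. The other planned difference, H19 minus Igf2, was not run, since Igf2 was not analysed here. The depth limits Plagl1 most, with 23 to 208 counts per library.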
